A study of Mus musculus with 24 samples.

Results

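B cells labelled MZ from the spleens of NOD mice (2 arrays) were set against B cells labelled T2MZ from the spleens of B6 mice (2 arrays), 4 of the 24 arrays of a series on 6 splenic B cell subsets in both strains. The pair was chosen by its subset markers, Cr2 and Asb2 above all, and not by its labels, because the NOD groups and the B6 groups of the same name did not match in these genes. NOD is the inbred strain NOD/ShiLtJ, which develops autoimmune diabetes spontaneously, and B6 is C57BL/6/J, which does not. In both strains the mice were females aged 7 weeks. Each pool was made from the spleens of 8 mice of 1 strain, B cells were enriched by removing cells that carry CD3 or CD11b, and the subsets were then sorted by CD21, CD23, CD93, CD24, IgM and B220. The experiment was repeated with new pools, so the pair rests on 2 NOD pools and 2 B6 pools. RNA was amplified in 2 cycles from the poly(A) tail and hybridised to Affymetrix mouse genome arrays.

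Marginal zone (MZ) B cells line the border of the splenic white pulp and answer blood-borne antigens fast. T2MZ cells are held to be their transitional precursors, and Notch2 signalling drives cells along this path. Both kinds of cell carry much CD21 (from Cr2) and IgM. T2MZ cells still carry CD93 and CD23, which mature MZ cells have lost or carry little of.

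Every value below is a log2 signal of a probe set, centred by the authors on that probe set's median over the 24 arrays, so that 0 is the middle array and no expression level can be read. A gene is read by whichever of its probe sets varied most over the 24 arrays (largest standard deviation). These are bulk samples, in which fewer cells of a type and less RNA per cell cannot be told apart. A lower value is a lower signal of that probe set, and transcript amounts were not measured in another way.

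The genes that chose the pair were above the middle array in both groups. Cr2 stood at 0.87 and 0.80 in NOD MZ, against 0.58 and 0.59 in B6 T2MZ. Asb2, a Notch target that encodes a subunit of a ubiquitin ligase, stood at 2.71 and 2.65 in NOD MZ, against 1.70 and 1.62 in B6 T2MZ. For Dtx1, a regulator of Notch signalling, the values were 2.14 and 1.89 in NOD MZ and 1.51 and 0.57 in B6 T2MZ. All 3 genes were thus above 0 in all 4 arrays in the probe set read here. Another probe set of Dtx1 stood at -0.06 and 0.21 in NOD MZ, against 0.78 and -0.06 in B6 T2MZ. Of 18 measured marginal zone genes, 12 had both group means above 0 and 6 had means on opposite sides of 0. Among the 6 were Plxnd1 (mean -0.90 in NOD MZ, against 0.30 in B6 T2MZ), Myof (-0.01 in NOD MZ, against 1.42 in B6 T2MZ) and the sphingosine phosphate receptor gene S1pr1 (0.76 in NOD MZ, against -0.37 in B6 T2MZ). The subset markers chose the pair, so all their values are a description and carry no test.

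Following the labels instead gave mixed results. In 9 of the 18 marginal zone genes the group means were nearer in this pair than between NOD MZ and B6 MZ, and in 14 they were nearer than between NOD T2MZ and B6 T2MZ. Tlr3, which senses double-stranded RNA and marks MZ cells, stood at 1.67 and 2.14 in NOD MZ, against 0.41 and 1.47 in B6 T2MZ. Its group means differed by 0.97 in this pair, by -1.81 between NOD MZ and B6 MZ, and by -1.22 between NOD T2MZ and B6 T2MZ. S1pr3, another sphingosine phosphate receptor gene, differed by 0.86 in this pair, by -1.002 for the shared MZ label and by -2.02 for the shared T2MZ label. The sign thus turned with the choice of partner group in both genes. Asb2 gave 1.02, -0.05 and -2.01 in the same order of comparisons, and Cr2 gave 0.25, -0.03 and -0.56. In Asb2 and Cr2, as in Dtx1, S1pr1 and Cd93, NOD MZ thus lay nearer to B6 MZ than to B6 T2MZ. These 3 comparisons share arrays.

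Over 40 genes of the marginal zone, follicular and immature B cell lists, without Cr2, Asb2 and Dtx1, NOD MZ was nearest to B6 T2MZ. With every gene centred on its strain's mean, the root mean square difference between the group means was 0.335 log2 units for B6 T2MZ. It was 1.01 for B6 T3, the next nearest group, and 1.09 for B6 MZ. The pair was chosen for its match in subset markers on these same arrays. A near match over more such genes is thus partly built in, and it is a description without a test. The nearest B6 group also carried another label than the NOD group in the other 5 NOD groups, with NOD T1 nearest to B6 MZ (0.568). NOD T1 also had the highest Asb2 (4.98 and 4.56) and Tlr3 (4.83 and 4.68) of all groups.

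The gate genes do not settle which subset the NOD MZ arrays hold. Cd93, a marker of immature B cells, stood at -1.94 and -1.53 in NOD MZ, against 0.46 and 1.14 in B6 T2MZ. Fcer2a, which encodes CD23, stood at 1.02 and 0.92 in NOD MZ, against -0.20 and 0.20 in B6 T2MZ. The NOD MZ arrays thus read higher in the CD23 gene and lower in the CD93 gene than their partner. Cd93 was at or below 0.51 in all 12 NOD arrays, and it lay at 2.22 or more in the 6 B6 arrays labelled T1, T2FO and T3. Of the markers of immature cells besides Cd93, the transcription factor Sox4 differed most, with a difference of -2.54 between NOD MZ and B6 T2MZ. Whether NOD MZ and B6 T2MZ are the same stage was not tested, and the identity of the NOD groups remains in doubt in everything that follows.

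**Figure D1:**
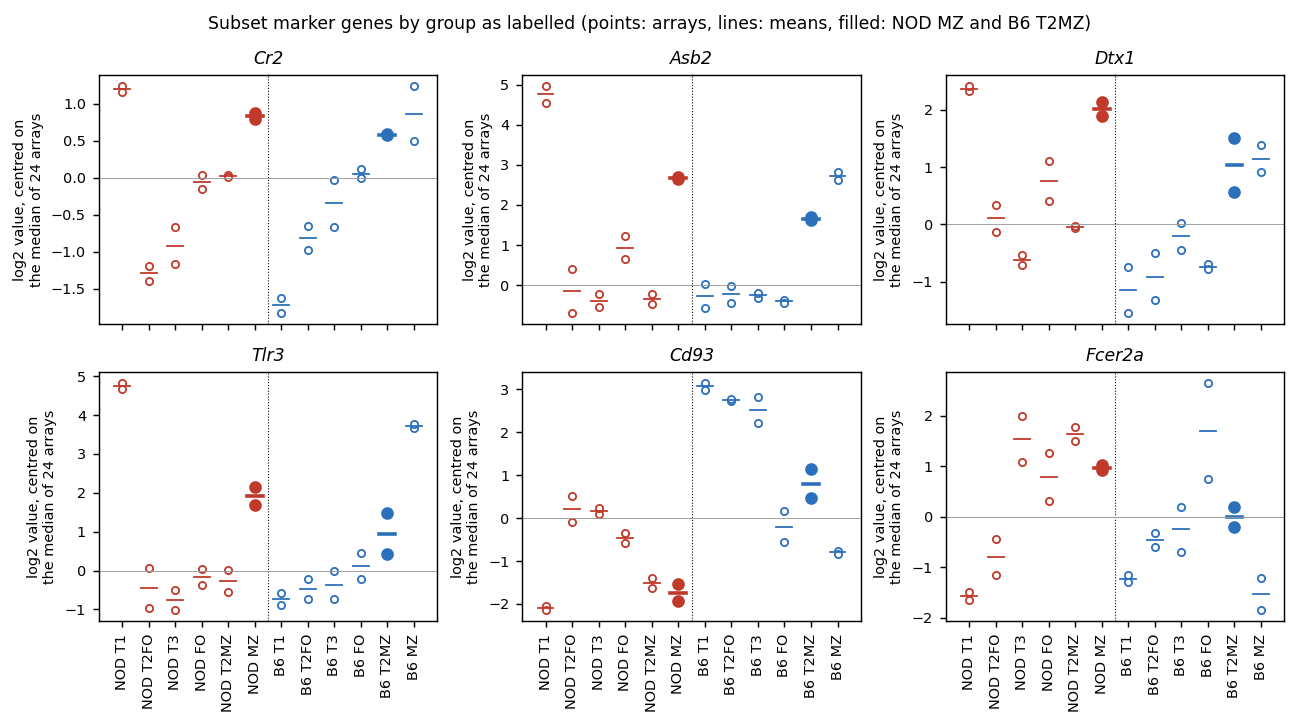
Centred log2 values of 6 subset marker genes (vertical axes) in the 12 groups as labelled (horizontal axis), with a point for each array, a line at the group mean and filled points for NOD MZ and B6 T2MZ. NOD MZ and B6 T2MZ are both above 0 in Cr2, Asb2, Dtx1 and Tlr3, while Cd93 is below -1.5 in both NOD MZ arrays and above 0 in both B6 T2MZ arrays.

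The B6 T2MZ arrays had lower signal towards the 5' end of the control transcripts. The 5' probe set of beta-actin stood at 0.79 and 0.67 in NOD MZ, against -0.95 and -3.88 in B6 T2MZ. The 3' probe set of beta-actin read 0.16 and 0.11 in NOD MZ, against -0.36 and -0.26 in B6 T2MZ. The 5' end thus differed more than the 3' end, both between the groups and between the B6 replicates. For Gapdh, the 5' values were 0.90 and 0.80 in NOD MZ and -0.03 and -2.44 in B6 T2MZ, and the 3' values were 0.41 and 0.47 in NOD MZ and 0.40 and -0.74 in B6 T2MZ. Replicate 2 of B6 T2MZ was thus low at both ends of Gapdh. The spread between replicates, as a root mean square over 18193 genes, was 0.244 in NOD MZ and 0.559 in B6 T2MZ. In the other 20 arrays, 10 NOD arrays had beta-actin 5' values of -0.54 to 0.77 and 10 B6 arrays had -4.04 to 0.47. Of these B6 arrays 2, replicate 2 of FO and replicate 2 of MZ, lay within the NOD range.

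**Figure D2:**
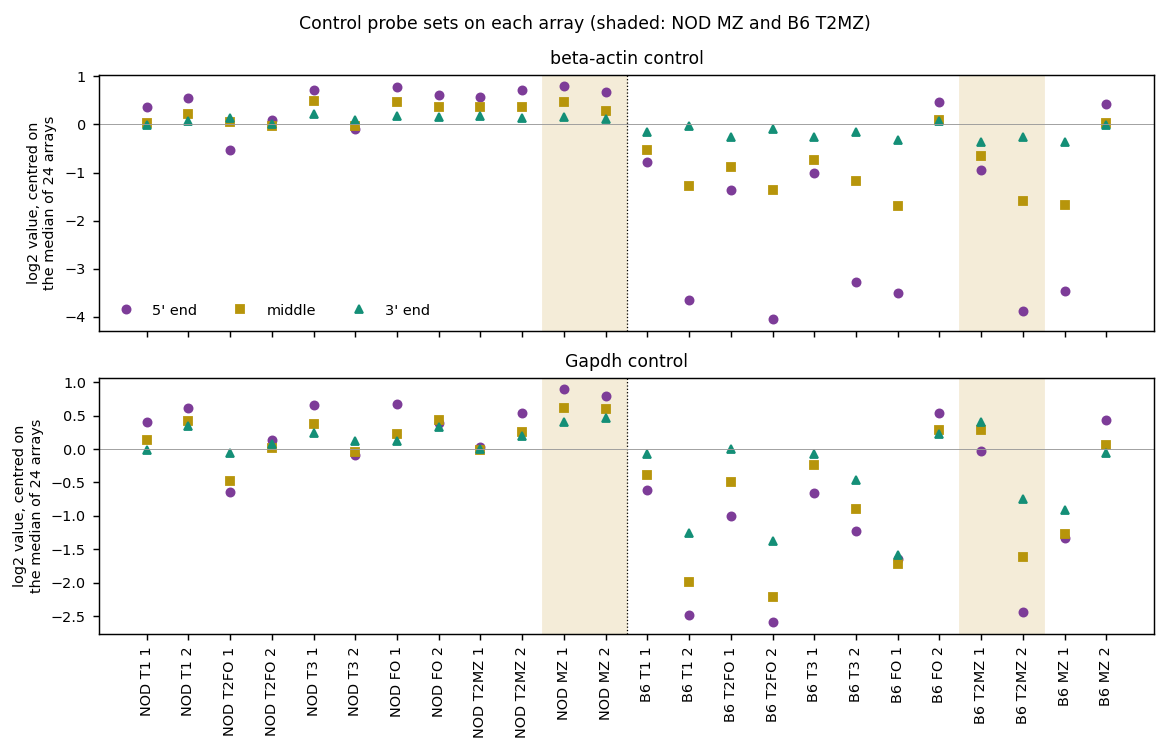
Centred log2 values of the beta-actin and Gapdh control probe sets at the 5' end, the middle and the 3' end of the transcript (vertical axes) on each of the 24 arrays (horizontal axis), with NOD MZ and B6 T2MZ shaded. The beta-actin 5' signal is 0.67 or more in both NOD MZ arrays and -0.95 or less in both B6 T2MZ arrays, while the 3' signal of these 4 arrays stays between -0.36 and 0.16.

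Between NOD MZ and B6 T2MZ, 636 of 18193 genes (3.5%) were called, 397 higher (2.18% of all genes) and 239 lower (1.31%) in NOD MZ. Called means an adjusted p under 0.05 in limma after Benjamini-Hochberg adjustment over all genes, with 1 mean per group fitted over the 24 arrays. The 636 include Cd93 and Sox4, which are described above without a test. Counts of called genes in the lists below are to be read beside the 2.18% higher and 1.31% lower of all genes. The median difference over all genes was -0.02. The count was 262 when the probe sets of a gene were averaged, 2294 with the 5' minus 3' difference of the beta-actin control as a covariate, and 11 when only these 4 arrays were fitted (4 higher and 7 lower). It was 283 without replicate 1 of B6 T2MZ, 273 without replicate 1 of NOD MZ and 253 without replicate 2 of NOD MZ.

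The genes with the largest differences were examined in detail. They are the 12 largest each way among genes that were called, whose 2 NOD values lay apart from the 2 B6 values, and that were called alike with the mean of all their probe sets. Over all genes, 39.1% had arrays that did not overlap in this way, so that criterion alone says little.

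The largest falls that met these conditions were in a pair of neighbouring tripartite motif genes. Trim12a and Trim12c belong to a family of ubiquitin ligases that includes antiviral restriction factors. Trim12a stood at -3.07 and -3.04 in NOD MZ, against 3.18 and 3.21 in B6 T2MZ, a difference of -6.25 ± 0.27 log2 units (SE, limma, adjusted p = 1.38e-08). Trim12c stood at -2.69 and -3.25 in NOD MZ, against 2.75 and 2.99 in B6 T2MZ, a difference of -5.84 ± 0.37 (adjusted p = 4.79e-07). They are close paralogs, so whether signal is shared between them was not tested. Each also had a second probe set, which differed by -0.31 for Trim12a and by -0.82 for Trim12c. Of 9 measured genes of the Trim12 and Trim30 cluster, 4 fell and none rose, the other 2 that fell being Trim30a (-1.18 ± 0.20) and Trim34a (-1.65 ± 0.28). The second probe set of Trim30a differed by -0.02 and that of Trim34a by -1.56. With the mean of probe sets 3 genes of the cluster were called lower, and Trim30a was not among them. Trim30a and Trim34a were not called without replicate 1 of NOD MZ, where their differences were -1.06 and -1.47. The cluster median was -0.92, beside -0.02 over all genes.

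Genes of the Ifi200 family encode interferon-inducible proteins with a pyrin and a HIN domain, several of which sense DNA. Ifi213 stood at -2.32 and -2.91 in NOD MZ, against 2.77 and 2.43 in B6 T2MZ (difference -5.22 ± 0.37, adjusted p = 1.78e-06). Ifi209 stood at -2.13 and -2.49 in NOD MZ, against 1.82 and 2.13 in B6 T2MZ (difference -4.28 ± 0.31, adjusted p = 1.78e-06). Their other probe sets differed by -1.40 and -0.04. Of 8 measured family members, these 2 fell and Ifi204 rose (1.31 ± 0.29, adjusted p = 0.0202). Ifi204 was not called without either B6 T2MZ array or without replicate 2 of NOD MZ, with differences of 0.94 to 1.37. The DNA sensor Aim2 had -1.08 and -0.56 in NOD MZ and 0.92 and 0.47 in B6 T2MZ and was not called.

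The start regions of 5 genes are shown because the Trim and Ifi200 families, which led the falls, are known for induction by interferon. Each run holds 250 bases before and 30 bases from the annotated start, 5' to 3' on the gene's strand, from RefSeq on GRCm38.p6, which is a B6 sequence. Capitals mark GAAA, any 2 bases and GAAA again, or TTTC, any 2 bases and TTTC where the match lies on the opposite strand, a repeat known from interferon-stimulated response elements. The windows are chr7:104315466-104315745 (minus strand) for Trim12a, chr7:104353320-104353599 (minus) for Trim12c, chr1:173599243-173599522 (minus) for Ifi213, chr12:26456423-26456702 (minus) for Rsad2 and chr10:128270248-128270527 (plus) for Stat2.
Trim12a: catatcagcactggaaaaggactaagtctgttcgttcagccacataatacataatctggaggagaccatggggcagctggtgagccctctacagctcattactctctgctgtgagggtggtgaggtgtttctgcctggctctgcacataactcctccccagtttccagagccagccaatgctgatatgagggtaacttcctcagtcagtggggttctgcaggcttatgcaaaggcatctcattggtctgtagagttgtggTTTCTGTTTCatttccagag
Trim12c: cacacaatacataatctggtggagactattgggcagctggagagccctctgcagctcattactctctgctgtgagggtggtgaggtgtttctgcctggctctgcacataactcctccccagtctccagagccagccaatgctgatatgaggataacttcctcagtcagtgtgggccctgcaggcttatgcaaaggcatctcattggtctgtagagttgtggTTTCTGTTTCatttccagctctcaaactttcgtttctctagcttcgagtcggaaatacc
Ifi213: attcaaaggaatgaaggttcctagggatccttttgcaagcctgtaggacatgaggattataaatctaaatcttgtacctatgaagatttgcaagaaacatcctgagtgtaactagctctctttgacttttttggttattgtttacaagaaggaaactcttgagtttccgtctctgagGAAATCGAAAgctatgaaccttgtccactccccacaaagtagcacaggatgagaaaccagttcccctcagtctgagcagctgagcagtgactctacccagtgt
Rsad2: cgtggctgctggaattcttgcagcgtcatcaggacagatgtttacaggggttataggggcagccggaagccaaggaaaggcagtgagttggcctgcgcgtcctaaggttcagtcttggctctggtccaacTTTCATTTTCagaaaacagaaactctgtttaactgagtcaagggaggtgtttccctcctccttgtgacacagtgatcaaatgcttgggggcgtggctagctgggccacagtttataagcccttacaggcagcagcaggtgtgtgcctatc
Stat2: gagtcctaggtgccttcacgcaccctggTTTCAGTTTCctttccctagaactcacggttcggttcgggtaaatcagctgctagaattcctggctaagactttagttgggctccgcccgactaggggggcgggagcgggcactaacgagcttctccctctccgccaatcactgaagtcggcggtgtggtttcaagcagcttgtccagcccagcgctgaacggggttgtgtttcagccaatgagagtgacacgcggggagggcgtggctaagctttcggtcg
All 5 windows hold the motif once, as do those of Trim30a and Trim34a, and that of Ifi209 does not. Of 32851 such windows in the table, 3.28% hold it. The windows of Trim12a and Trim12c share a run of 71 identical bases. Stat2 holds the motif and was higher in NOD MZ, so among the genes shown the letters stand beside differences of both signs. A match is a description of the sequence and not a bound site, and the sequence of NOD was not examined.

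The wider interferon response list did not move as a whole past the threshold. Of 25 measured genes, 1 fell, 1 rose and 23 were not called. Rsad2, an antiviral enzyme that makes a chain-terminating nucleotide, stood at -0.86 and -1.16 in NOD MZ, against 1.24 and 1.80 in B6 T2MZ (difference -2.53 ± 0.46, adjusted p = 0.00519), but it was not called without replicate 2 of B6 T2MZ (-2.25) or of NOD MZ (-2.39). Stat2, which carries the signal of type I interferon to the nucleus, stood at 1.27 and 0.91 in NOD MZ, against -0.65 and -0.73 in B6 T2MZ (difference 1.78 ± 0.26, adjusted p = 0.00098). Both probe sets of Stat2 were called. Differences were negative in 20 of the 25 genes, with a median of -0.45 here and -0.87 between the strains in the other 20 arrays. With the 5' covariate the median here was -0.78.

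Among the other large falls, the peptide transporter gene Slc15a2 stood at -3.27 and -3.30 in NOD MZ, against 2.22 and 1.98 in B6 T2MZ (difference -5.38 ± 0.27, adjusted p = 6.1e-08). Vcp, an ATPase that extracts proteins for degradation, stood at -2.34 and -2.33 in NOD MZ, against 2.31 and 2.19 in B6 T2MZ (difference -4.58 ± 0.26), yet its second probe set differed by 0.98 the other way. Arhgap26 stood at -1.57 and -1.996 in NOD MZ, against 2.85 and 3.19 in B6 T2MZ (difference -4.80 ± 0.40). The groups lay far apart in all 3 genes, in a single probe set of each. Map7, a microtubule-associated protein gene, differed by -3.78 ± 0.37 in one probe set and was called lower in 2 of its 3. D17H6S56E-5 was called in both its probe sets (-3.62 ± 0.57 in the one that stands for it). The probe set annotated to Mir1931 differed by -4.82 ± 0.51, in an assay primed from the poly(A) tail that does not read a mature miRNA. Gm11346 (-3.80 ± 0.56) and A630001G21Rik (-3.62 ± 0.28) complete the 12. These 12 had adjusted p of 1.38e-08 to 0.00201 and stayed called without any single array of the 4.

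Of the rises that met these conditions the largest was in BC018473, at 2.97 and 2.68 in NOD MZ, against -1.99 and -2.70 in B6 T2MZ (difference 5.17 ± 0.27, adjusted p = 7.91e-08). Scd2, a desaturase that makes monounsaturated fatty acids, stood at 2.56 and 3.16 in NOD MZ, against -1.65 and -2.53 in B6 T2MZ (difference 4.96 ± 0.30, adjusted p = 2.82e-07). It was the only called gene of 18 measured genes of fatty acid synthesis and desaturation, and its other probe sets differed by -0.49 to 0.15. Cdkn1b, the cell cycle inhibitor p27, stood at 2.34 and 1.55 in NOD MZ, against -1.69 and -2.16 in B6 T2MZ (difference 3.87 ± 0.56, adjusted p = 0.000941), and its second probe set differed by -0.61. In BC018473, Scd2 and Cdkn1b, both NOD values lay well above both B6 values in a probe set whose partners did not show it.

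In 3 of the 12 rises, more than 1 probe set was called. Chd4, an ATPase of a nucleosome remodelling complex, stood at 0.88 and 1.02 in NOD MZ, against -2.93 and -2.07 in B6 T2MZ (difference 3.44 ± 0.66, adjusted p = 0.00752), and all 3 of its probe sets were positive. Plxnc1, a semaphorin receptor, stood at 1.79 and 1.75 in NOD MZ, against -2.22 and -0.39 in B6 T2MZ (difference 3.07 ± 0.58). The B6 replicates of Plxnc1 lay further apart than those of the other genes among the 24. The 2 probe sets of 2310001H17Rik differed by 3.10 and 2.15. The others among the 12 were Zfp979 (4.91 ± 0.40), a zinc finger gene, Inpp5f (4.28 ± 0.32), a phosphoinositide phosphatase, AI506816 (3.89 ± 0.29), Utrn (3.27 ± 0.30), which encodes the dystrophin relative utrophin, LOC664787 (3.26 ± 0.29) and Gm20199 (3.16 ± 0.67). Another probe set of Utrn was called the other way, with a difference of -1.43. Of the 12, 9 stayed called without any single array, and Chd4, Plxnc1 and Gm20199 did not. Leaving out replicate 1 of B6 T2MZ or replicate 1 of NOD MZ ended the call of all 3, and leaving out replicate 2 of NOD MZ ended that of Chd4 and Plxnc1, with differences of 3.02 to 3.51 for Chd4, 2.15 to 3.09 for Plxnc1 and 2.69 to 2.77 for Gm20199.

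**Figure D3:**
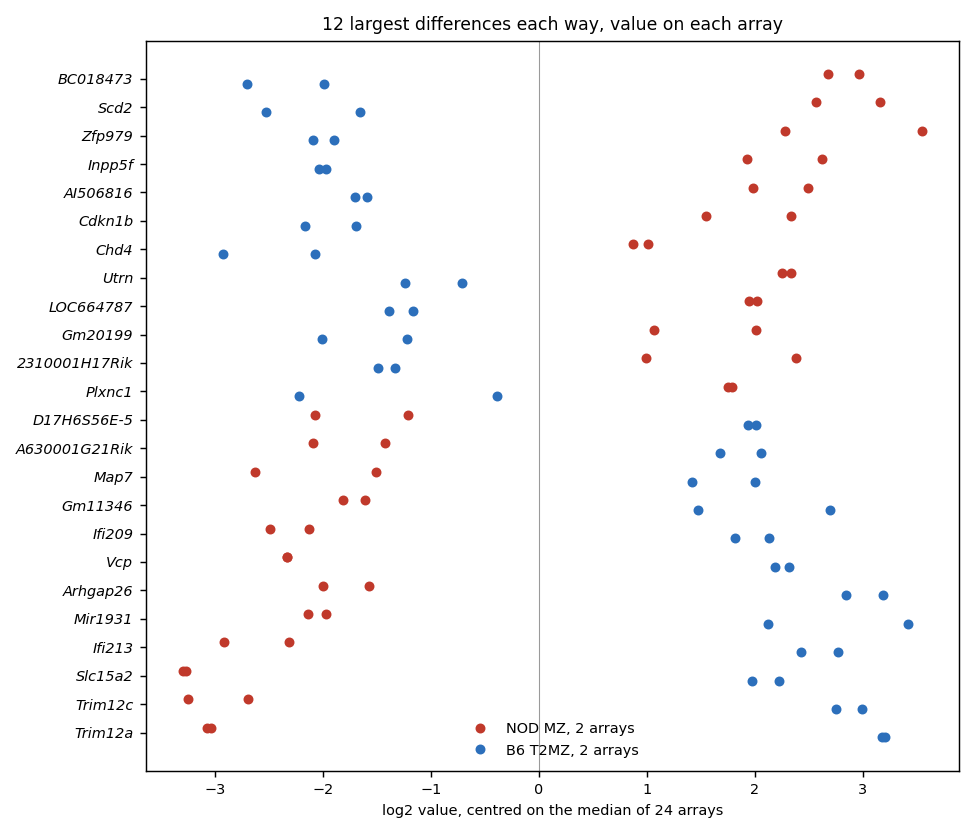
Centred log2 values (horizontal axis) of the 12 rises and 12 falls named by size (vertical axis), with 2 points for NOD MZ above 2 points for B6 T2MZ in each row. In every row the NOD MZ points and the B6 T2MZ points lie on opposite sides of 0.

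Probe sets of the same gene often disagreed. Of the 636 called genes, 111 had a single probe set and 525 had several. In 280 of the 525, no other probe set reached 25% of the difference in the same direction. In 50 genes at least 2 probe sets were called in the same direction, 33 higher and 17 lower in NOD MZ. In 10 genes probe sets were called in both directions. A difference in a gene read by a single deviating probe set thus describes that probe set.

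Of 23 measured B cell receptor signalling genes, 3 were called higher and 0 lower, beside 2.18% and 1.31% of all genes. The counts were 2 and 0 with the mean of probe sets, and 5 and 1 with the 5' covariate. Pik3ap1, an adaptor that links the receptor complex to phosphoinositide 3-kinase, stood at 1.27 and 1.39 in NOD MZ, against -1.46 and -1.32 in B6 T2MZ (difference 2.71 ± 0.20, adjusted p = 1.94e-06). Cd22, an inhibitory co-receptor, stood at 1.48 and 1.43 in NOD MZ, against a mean of -0.87 in B6 T2MZ with the higher array at -0.73 (difference 2.32 ± 0.44, adjusted p = 0.00714). Prkcb, a protein kinase C that couples the receptor to NF-kB, rose by 1.94 ± 0.50 (adjusted p = 0.0483). The groups were apart in all 3, but the second probe set of Pik3ap1 differed by -0.63, that of Cd22 by 0.29, and those of Prkcb by -0.23 to -0.02. Without a single array the call of Prkcb ended in all 4 cases and that of Cd22 in 3 (all but replicate 2 of B6 T2MZ). Their differences then ran from 1.49 to 2.38 for Prkcb and from 2.19 to 2.35 for Cd22. Differences were positive in 17 of the 23 genes with a median of 0.68, which was 0.04 with the 5' covariate.

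Ikbkb, a kinase that activates NF-kB, was the only called gene of 22 in the list of BAFF, NF-kB and survival genes (0.64 and 1.25 in NOD MZ, against -1.19 and -0.94 in B6 T2MZ, difference 2.01 ± 0.28, adjusted p = 0.000786). Of 23 Toll-like receptor and adaptor genes, apart from Tlr3, Tlr6 alone was called. Tlr6, a partner of TLR2 in sensing lipopeptides, stood at 0.45 and 0.67 in NOD MZ, against -0.81 and -0.46 in B6 T2MZ (difference 1.19 ± 0.21, adjusted p = 0.00421). It was not called without replicate 1 of B6 T2MZ or replicate 2 of NOD MZ (1.02 and 1.08). Both genes thus rose while the medians of their lists were 0.24 and 0.11.

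None of 18 measured Notch pathway genes was called, with a median of 0.08, when the subset markers Asb2, Dtx1, Notch2, Hes1 and Hes5 were left aside. The smallest p-values were those of the receptor gene Notch1 (-0.34 and -0.55 in NOD MZ, against 0.07 and 0.06 in B6 T2MZ, adjusted p = 0.0818) and of Itch, a ubiquitin ligase (difference 0.80 ± 0.37, adjusted p = 0.371). Of 18 migration and adhesion genes none was called either, with Dock2 at -1.99 ± 0.69 and the integrin gene Itgal at -0.69 ± 0.24. Other probe sets went the other way, by 0.13 and 0.74 in Dock2 and by 0.74 in Itgal. Plasma cell and secretion genes (18, median 0.30) and immediate early and stress genes (25, median 0.19) had no called member. A p that misses the threshold does not show that these genes were alike in both groups.

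Antigen presentation genes gave 1 fall in 18. H2-Aa, which encodes a class II MHC alpha chain, stood at -1.495 and -1.10 in NOD MZ, against 1.60 and 2.04 in B6 T2MZ (difference -3.11 ± 0.46, adjusted p = 0.00112). Its other 3 probe sets differed by -0.52 to 2.39, and the mean of all 4 differed by -0.30 (adjusted p = 0.702). NOD and B6 carry different MHC haplotypes. Ctse, the endosomal protease cathepsin E, stood at 2.39 and 2.59 in NOD MZ, against -2.51 and -2.66 in B6 T2MZ (difference 5.07 ± 0.41, adjusted p = 4.63e-06) and was the only called gene of 15 lysosomal proteases. Its second probe set differed by -0.65, and the mean of both was not called (adjusted p = 0.0508). Phgdh, the first enzyme of serine synthesis, stood at -3.15 and -2.43 in NOD MZ, against 2.90 and 1.69 in B6 T2MZ (difference -5.09 ± 0.75, adjusted p = 0.00117) and alone was called of 12 serine and one-carbon enzymes. Its other 3 probe sets differed by -0.09 to 0.45. H2-Aa, Ctse and Phgdh thus each had a called probe set beside others that did not follow it.

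Of 23 proliferation genes none was called, 16 were negative and the median difference was -0.67. The median over the list was -0.33 and 0.49 on the NOD MZ arrays, against 0.38 and 1.44 on the B6 T2MZ arrays, so replicate 1 of each was the lower and the groups overlapped. Rrm2, a subunit of ribonucleotide reductase, had -1.66 and 0.48 in NOD MZ and 1.13 and 1.91 in B6 T2MZ (adjusted p = 0.174). Of 12 cell cycle inhibitors, D cyclins and their kinases, Cdkn1b rose and Cdk6 fell (-1.30 ± 0.25, adjusted p = 0.00852). The other probe sets of Cdk6 differed by -0.54 and -0.05, and the mean of its probe sets (-0.63) was not called. Leaving out any 1 of the 4 arrays ended the call of Cdk6 (-1.36 to -1.24).

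Markers of other cells are described here by their calls and array medians. None of 12 T cell, 17 myeloid, 9 dendritic cell or 9 erythroid and platelet genes was called, beside 3.5% of all genes. At that share, few or no calls would be found in lists of this size. The T cell list had array medians of -0.26 and 0.10 in NOD MZ, against -0.13 and -0.01 in B6 T2MZ, and the myeloid list -0.11 and -0.03 in NOD MZ, against -0.02 and 0.09 in B6 T2MZ. Prf1, the perforin gene, was the only called gene of 8 NK cell genes (0.67 and 1.17 in NOD MZ, against -0.14 and 0.07 in B6 T2MZ, adjusted p = 0.0429). Leaving out any 1 of the 4 arrays ended this call (0.70 to 1.20), and the second probe set of Prf1 differed by -0.57. Absence of a marker cannot be read from centred values. Nnt, which carries a deletion in C57BL/6J, stood at 0.37 and 0.47 in NOD MZ, against -0.83 and -0.93 in B6 T2MZ (difference 1.30 ± 0.42, adjusted p = 0.133). It was not called. NOD arrays ran from -0.11 to 0.52 in Nnt. Replicate 2 of B6 FO (0.30) and replicate 2 of B6 MZ (0.03), whose 5' signal was NOD-like, fell between these values. Every other B6 array had -0.47 or less. With the 5' covariate the difference was 0.69, and the other probe sets of Nnt differed by -0.31 and 0.86. Whether these values reflect the deletion was not tested.

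**Figure D4:**
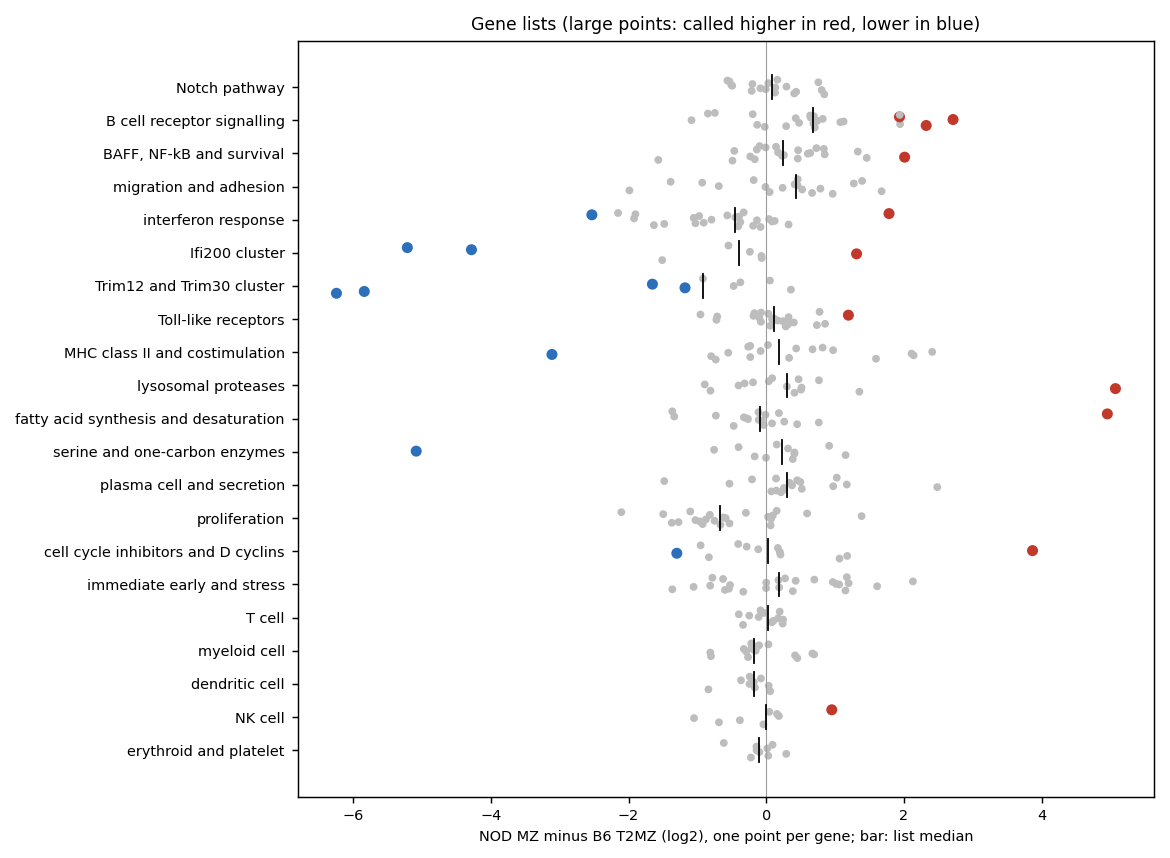
Difference between NOD MZ and B6 T2MZ in log2 units (horizontal axis) for the measured genes of 21 lists (vertical axis), with a point for each gene and a black bar at the list median. Called genes are large points, red where higher and blue where lower in NOD MZ. The Trim12 and Trim30 cluster holds 4 called genes, the B cell receptor signalling list and the Ifi200 cluster hold 3 each, the interferon response list and the list of cell cycle inhibitors hold 2 each, and no other list holds more than 1.

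The genes called in the pair differed between the strains in the other 5 subsets too. The 10 other NOD arrays were set against the 10 other B6 arrays, none of which is in the pair, although they come from the same 4 pools of mice. In that comparison 3316 genes were called (18.2%), 1799 higher (9.89%) and 1517 lower (8.34%) in NOD. Fitted with the 5' covariate, that comparison had 2232 genes higher and 2778 lower, a majority in the other direction. Of the 636 genes called in the pair, 625 were called there with the same sign, which is 98.3% of the pair's list and 18.8% of the other. All 636 had the same sign. Where a gene has several probe sets, the one with the largest spread over all 24 arrays was read. That rule favours probe sets that separate the strains in every subset. The agreement between the pair and the other arrays, and the separation of the named genes given next, is thus partly built in. For the 24 largest named genes the 12 NOD arrays lay apart from the 12 B6 arrays in every case, as they did in 3.33% of all genes. Trim12a, for example, lay between -3.51 and -2.85 in the 12 NOD arrays and between 2.85 and 4.38 in the 10 other B6 arrays, a difference of -6.58 in the 20 arrays.

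The strain difference of the pair was tested against that of the other subsets, and no gene was called (limma interaction contrast, 0 of 18193, with 235 genes or 1.29% at an unadjusted p under 0.05, and 1 called after quantile normalization). Utrn came nearest among the named genes, with a difference of 3.27 in the pair and 1.88 in the other 20 arrays (interaction 1.39, unadjusted p = 0.000859). Stat2 had 1.78 in the pair and 0.96 in the other arrays (unadjusted p = 0.0111). Neither passed after adjustment over all genes. Pairing by label gave similar numbers of calls, 721 (3.96%) between NOD MZ and B6 MZ and 720 (3.96%) between NOD T2MZ and B6 T2MZ, in comparisons that share arrays with the pair. Trim12a gave -6.25 in the pair, -6.92 for the shared MZ label and -6.41 for the shared T2MZ label. Scd2 gave 4.96, 5.04 and 3.78 in the same order, and Ctse gave 5.07, 5.08 and 5.54. All 24 of the largest named genes kept their sign in both label pairings. Their size moved by more than 1.5 times in Gm11346 (-2.44) and Gm20199 (2.05) for the shared MZ label, and in LOC664787 (1.96) and Plxnc1 (1.79) for the shared T2MZ label.

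**Figure D5:**
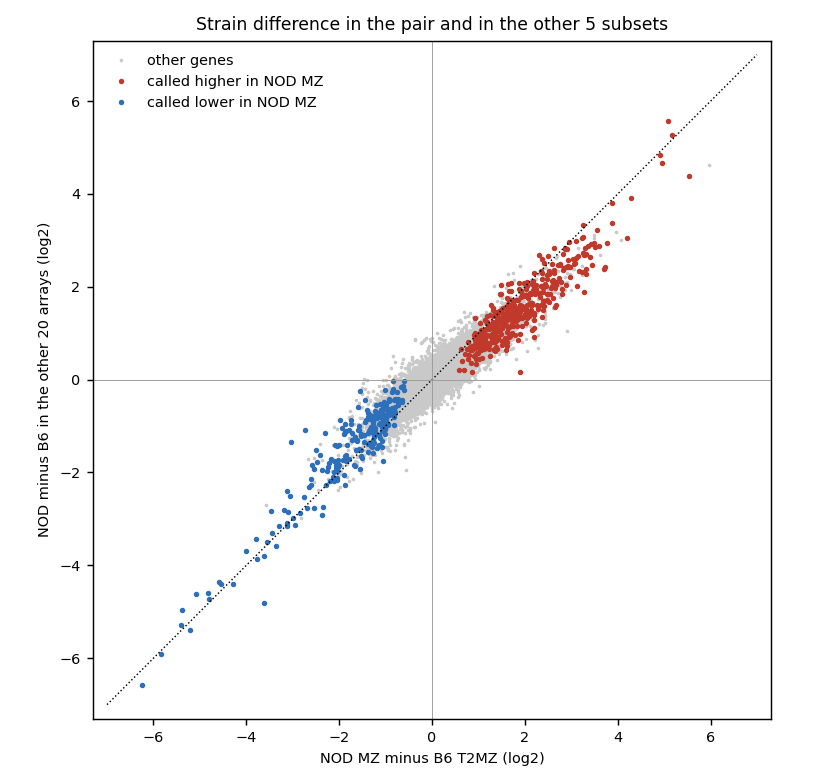
Difference between NOD MZ and B6 T2MZ (horizontal axis) against the difference between NOD and B6 in the other 20 arrays (vertical axis), both in log2 units, with a point for each of 18193 genes and a dotted line at equality. Called genes are red where higher and blue where lower in NOD MZ (Cd93 and Sox4, which carry no test, are grey), and all of them lie in the 2 quadrants of equal sign.

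The lower 5' signal of the B6 T2MZ arrays was set beside these differences. The 2 B6 arrays with NOD-like 5' signal lay on the B6 side of both NOD MZ arrays in 588 of the 636 called genes (92.5%), in 373 of 397 called higher and 215 of 239 called lower. Over all 18193 genes, with the side taken from the sign of the pair's difference, they did so in 37.6%. The called genes were chosen for a wide gap between the groups, so a larger share among them follows in part from that choice. These 2 arrays also belong to other subsets, FO and MZ. Whether the 5' signal causes any of the differences was not tested. All 24 of the largest named genes were among the 588, which follows from the gap between all NOD and all B6 arrays in these genes. With the 5' minus 3' difference as a covariate, 613 of the 636 (96.4%) were called in the same direction. Replicate 1 of B6 T2MZ, whose 5' signal was the less reduced, was the B6 array nearer to NOD in 261 of the 636 genes. For Trim12a the difference with the covariate was -6.55, for Scd2 4.60 and for Stat2 1.63.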

How the data were processed

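RNA of 24 samples was read on arrays. Per the submitters' processing notes the authors used RMA, which gave the deposited log2 values. Neither its version nor the log base is stated in these sources, and base 2 was taken. Each probe set was found centred on its median over the 24 arrays, so dim probe sets could not be left out. Of 45101 probe sets, 34945 had 1 gene in the platform's annotation, which gave 18193 genes. Probe sets with several genes (932) or none (9160) and 64 controls were left out.

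Contrasts were fitted in limma 3.58.1 (R 4.3.3), with 1 mean per group over 12 groups, so that 24 arrays share an estimate of the spread. The 12 arrays of a strain come from 2 pools, so arrays of a pool are not independent (correlation within a pool 0.116) and p-values may be too small. An exact permutation test of 2 against 2 arrays cannot go below p = 0.333. The replicate numbers name separate pools in the 2 strains and pair no arrays between them. Errors are standard errors from limma. The members of the comparison and the gene lists were chosen with earlier results of these data known. Of each list, up to 4 called genes with the smallest adjusted p were named, or up to 2 where none was called. Immunoglobulin variable genes were not named. The fit was tested on simulated data. Alternatives were the mean of probe sets, every probe set, another rule for the probe set, a filter on spread, other scalings, the 5' covariate, the 4 arrays alone, blocks, robust moderation, a minimum difference and each array left out. Promoter windows are from RefSeq, and figures were drawn with matplotlib 3.10.9.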

Additional observations from a re-analysis of the deposited data

Results flagged for a closer look

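Signal also differed outside the genes described. Of 10092 probe sets with no gene or several genes in the annotation, 240 (2.38%) were called between NOD MZ and B6 T2MZ, 162 higher and 78 lower in NOD MZ (limma with Benjamini-Hochberg adjustment over these probe sets). Among the 34945 probe sets with a single gene 763 (2.18%) were called, 486 higher and 277 lower. What these unnamed probe sets read was not examined here.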

How the results depend on the processing

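The limits are the doubt over the NOD subset labels, 2 arrays per group, the lower 5' signal of B6 T2MZ and the disagreement among probe sets. Of 636 genes called in the pair, the count became 262 with the mean of probe sets (144 higher, 118 lower), 262 with the probe set most variable around the strain means, 2294 with the 5' covariate (56.0% higher, against 62.4%), and 11 with only the 4 arrays (1953 at an unadjusted p under 0.05). A replicate block within strains gave 991 and a replicate block on the number alone 734, although the numbers pair no arrays between strains. With the pool as a random block 709 were called in the pair, and 2327 in the other 20 arrays. Leaving out each array gave 253 to 657, with 73.3% higher without NOD MZ replicate 1. In the other 20 arrays the count of 3316 became 5889 with every probe set, 5010 with the 5' covariate (44.6% higher, against 54.3%) and 1027 with a difference of at least 1, and 2807 to 3624 without each array. The interaction gave 1 call after quantile normalization and 0 otherwise, each array left out included. The subset match of 0.335, a description of a pair chosen by subset markers, became 0.267 with the mean of probe sets, with the same nearest group. The cause of these shifts was not tested.

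With the probe set most variable around the strain means, the sign turned for Ctse (-0.65), H2-Aa (2.39), Pik3ap1 (-0.63), Utrn (-1.43, adjusted p = 0.0100) and Vcp (0.98), and with the mean of probe sets for Itgal (0.027), because other probe sets of these genes then enter. Of 39 named called genes, 39 remained called with the 5' covariate and 32 with the mean of probe sets. With the other probe set rule 23 remained called, and with only the 4 arrays 6. The genes named by size had to be called with the mean of probe sets, so the count of 32 was partly fixed by that rule. Of all 636 called genes, 227 were called in the same direction with the mean of probe sets.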

Other observations

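Genes in which several probe sets told the same were looked at after their values were seen, so they are given as a description. The 17 genes called lower in at least 2 probe sets included Cyp51 and Hmgcs1, a pair of enzymes of cholesterol synthesis. Cyp51, which demethylates lanosterol, stood at -1.47 and -1.46 in NOD MZ, against 1.09 and 2.21 in B6 T2MZ, and its 3 probe sets were all negative. Hmgcs1, an early enzyme of the pathway, stood at -0.78 and -0.18 in NOD MZ, against 0.69 and 1.12 in B6 T2MZ, and its 5 probe sets were all negative. A list of 21 genes of cholesterol synthesis and uptake was then written. Of 17 measured, all of them in synthesis and Cyp51 and Hmgcs1 among them, 13 were negative with a median of -0.59, beside -0.02 over all genes. Cyp51 and Hmgcs1, which prompted the list, were its only genes called lower, and Hsd17b7 was the only one called higher. The count and the median are thus partly built in. The list median was -0.22 and -0.18 on the NOD MZ arrays, against 0.29 and 0.20 on the B6 T2MZ arrays. It was -0.54 between the strains in the other 20 arrays. Of the 17, Hsd17b7, a reductase of the same pathway, went the other way (0.72 and 0.50 in NOD MZ, against -0.79 and -1.14 in B6 T2MZ), with 1 of its 4 probe sets negative.

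The 33 genes called higher in at least 2 probe sets are not described by any theme here, and a few were picked by name. The transcription factor genes Bcl11a (2.14), Ets1 (2.36) and Tcf4 (1.65) and the DNA methyltransferase gene Dnmt3a (2.35) were among them, with differences in log2 units between NOD MZ and B6 T2MZ. Each had at least 2 further probe sets that were not called. Cmah, which makes a form of sialic acid that Cd22 binds in the mouse, differed by 2.88 with 2 of 6 probe sets called.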
